A study of Mus musculus with 3 samples.

Results

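The expression of 9 genes of interferon reception and signalling was followed across the 3 hippocampal libraries of the series. They are the receptor chains Ifnar1, Ifnar2, Ifngr1 and Ifngr2, the kinases Jak1 and Tyk2, and the transcription factors Stat2, Irf9 and Irf7. They were chosen by gene name from the 54532 genes of the deposited table, and all 9 were found there. RNA came from the hippocampus of 10-month-old C57BL/6 mice that were wild type (WT), carried the PS19 transgene (PS19), or carried it with 1 Zbp1 allele lost (PS19 Zbp1+/-, labelled "PS19, Zbp1+-"). PS19 mice express human tau under the mouse Prnp promoter and serve as a model of tau pathology. Both PS19 groups share the transgene, and Zbp1 loss without the transgene was not analysed here. Each genotype had 1 library, the labels do not say whether animals were pooled, and no difference below has a replicate check. Intervals are at 95% and cover counting error alone, and the labels name no molecular identifiers that would separate PCR copies. Where 3 values follow each other without a name, they are in the order WT, PS19, PS19 Zbp1+/-.

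Type I interferons bind a receptor made of IFNAR1 and IFNAR2, whose tails carry the kinases TYK2 and JAK1. These phosphorylate STAT proteins, and the complex ISGF3, which holds STAT2 and IRF9, is formed. It binds interferon-stimulated response elements (ISRE) and switches on antiviral genes. Interferon gamma binds IFNGR1 and IFNGR2, acts through JAK1 and JAK2, and leads to STAT dimers at gamma-activated sites (GAS). IRF7 is itself induced by ISGF3 and amplifies the synthesis of type I interferons, and in the brain microglia are a main responding cell type.

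The table holds FPKM values, which are reads scaled by gene length and library size. The reads recovered from them totalled 16400328 to 17109734 per library. Zbp1, the targeted gene, had 5, 91 and 0 reads, and the 0 in PS19 Zbp1+/- allows an FPKM of up to 0.0537. Since WT had only 5 reads, this count does not settle whether 1 allele remained. The PS19 Zbp1+/- library differed from both others in further ways: it alone held Y-linked reads (711 for Ddx3y), it had 0 reads of Xist against 11062 and 13350, and it had 882 genes with a single read against 2467 and 2465. Its choroid plexus markers, 9 genes, summed to an FPKM of 26.8 against 3439 in WT and 2180 in PS19. The part of these differences in the values below was not tested. Markers of hippocampal neurons were present in all 3 libraries, with summed FPKM values of 264, 195 and 317 over 9 genes.

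The positions in the table are those of GRCm38, although the submitters' processing notes name mm39: 98.3% of 54409 gene IDs had the same start and end in GENCODE M21. Of the 4 receptor genes 3 are neighbours on chromosome 16, all on the plus strand. Ifnar2 (91372783 to 91405589), Ifnar1 (91485238 to 91507441) and Ifngr2 (91547072 to 91565623) lie within 193 kb, with Il10rb, the second chain of the interleukin-10 receptor, between the first and the second of them. Ifngr1 lies apart on chromosome 10 (19591949 to 19610229, plus strand), the chromosome that also holds Stat2 (128270559 to 128292849, plus strand). Jak1 is on chromosome 4 (101152367 to 101265282, minus strand), Tyk2 on chromosome 9 (21104068 to 21131243, minus strand), Irf9 on chromosome 14 (55603571 to 55610030, plus strand) and Irf7 on chromosome 7 (141262706 to 141266481, minus strand). Exons of 5 of the 9 genes overlap another gene, by 4 bases (Jak1 with Raver2) to 554 bases (Tyk2 with 1700084C06Rik, which had 0 reads). Irf7 shares 45 bases with Phrf1 and Irf9 shares 123 with Rnf31. Rnf31 lies on the same strand as Irf9 and Phrf1 on the other strand from Irf7. Whether counting used the strand is not given in the sources used here.

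Promoter sequences are shown for the 4 genes with the widest range over the libraries, all of them highest in PS19, because the ISRE and GAS are the sites through which this pathway acts. The windows run from 250 bases before to 49 after the RefSeq start site (GRCm38.p6), 5′ to 3′ on the gene's strand. Capitals mark matches to the ISRE (GAAA, any 2 bases, GAAA), the GAS core (TTCNNNGAA) or the shorter IRF core (AANNGAAA), which every ISRE contains, searched on both strands. Overlapping matches form 1 run of capitals.
Irf7 (chr7:141266375-141266674, minus strand): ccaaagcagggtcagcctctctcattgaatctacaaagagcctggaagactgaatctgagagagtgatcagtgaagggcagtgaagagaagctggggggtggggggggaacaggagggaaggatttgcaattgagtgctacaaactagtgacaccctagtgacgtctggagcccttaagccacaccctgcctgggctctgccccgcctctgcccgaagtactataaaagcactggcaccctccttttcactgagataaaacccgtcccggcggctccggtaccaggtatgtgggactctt
Irf9, first start (chr14:55603735-55604034, plus strand): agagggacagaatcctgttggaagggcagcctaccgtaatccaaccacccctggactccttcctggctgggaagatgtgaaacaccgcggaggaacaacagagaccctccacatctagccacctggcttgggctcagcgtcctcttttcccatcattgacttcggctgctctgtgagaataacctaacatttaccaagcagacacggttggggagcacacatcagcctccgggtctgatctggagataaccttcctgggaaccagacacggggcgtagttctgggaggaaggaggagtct
Ifngr1 (chr10:19591699-19591998, plus strand): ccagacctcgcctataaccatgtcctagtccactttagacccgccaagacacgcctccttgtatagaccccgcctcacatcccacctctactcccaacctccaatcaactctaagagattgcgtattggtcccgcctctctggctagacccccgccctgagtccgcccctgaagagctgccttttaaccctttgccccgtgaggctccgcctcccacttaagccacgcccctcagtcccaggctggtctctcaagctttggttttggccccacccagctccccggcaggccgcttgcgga
Stat2 (chr10:128270248-128270547, plus strand): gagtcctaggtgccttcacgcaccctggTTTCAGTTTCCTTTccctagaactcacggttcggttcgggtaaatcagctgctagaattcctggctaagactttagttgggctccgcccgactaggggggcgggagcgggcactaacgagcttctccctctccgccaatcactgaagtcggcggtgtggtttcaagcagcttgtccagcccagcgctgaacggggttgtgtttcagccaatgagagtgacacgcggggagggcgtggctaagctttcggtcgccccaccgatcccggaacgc
Of these windows the one of Stat2 held a match, TTTCAGTTTC, an ISRE on the opposite strand whose first base lies 222 bases before the start site (offset -222). It overlaps 2 IRF core matches, and the second of these extends the capitals beyond the ISRE. The windows of Irf7, Irf9 (both RefSeq starts) and Ifngr1 held none of the 3 motifs. Among all 10 windows of the 9 genes, those of Ifnar1 (TTCACGGAA, offset -5) and Ifnar2 (TTCCTGGAA, offset -214) held a GAS core and no ISRE. Of all 32851 promoter windows in the table, 3.44% held the ISRE, 8.30% the GAS core and 23.9% the IRF core. A match is a string of letters in a window, and no binding was measured here. The 2 RefSeq starts of Irf9 lie 414 and 1008 bases downstream of the start that the deposited table gives.

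Neither type I receptor chain, Ifnar1 or Ifnar2, differed by as much as 2-fold between any pair of libraries. Ifnar1, the chain that binds TYK2, had an FPKM of 6.88 in WT (705 reads), 7.80 in PS19 (801 reads) and 9.68 in PS19 Zbp1+/- (910 reads). It was highest in PS19 Zbp1+/-, at 1.41 times WT in reads per library size (interval 1.27 to 1.55). Its ratio of PS19 to WT was 1.13 (1.02 to 1.26), and that of PS19 Zbp1+/- to PS19 was 1.24 (1.13 to 1.37). The latter depended on the scaling: as a difference of log2(FPKM + 1) it was 0.28 as deposited, 0.02 with libraries rescaled to the same FPKM sum and 0.11 with libraries scaled by total reads. Ifnar2, the chain that binds JAK1, had an FPKM of 3.64 in WT (209 reads), 5.21 in PS19 (300 reads) and 4.65 in PS19 Zbp1+/- (245 reads). It was 1.43 times WT in PS19 (1.20 to 1.72). As deposited, the ratio of PS19 Zbp1+/- to PS19, 0.892, had an interval that holds 1 (0.750 to 1.06). This too depended on the scaling: the log2(FPKM + 1) difference of -0.14 became -0.37 and -0.29 under the same 2 scalings.

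Of the chains of the interferon gamma receptor, Ifngr1 was highest in PS19 and Ifngr2 lowest there. Ifngr1, the ligand-binding chain, had an FPKM of 4.50 in WT (221 reads), 9.14 in PS19 (450 reads) and 3.60 in PS19 Zbp1+/- (162 reads). PS19 stood apart on the high side, at 2.03 times WT (1.73 to 2.40), while PS19 Zbp1+/- was at 0.393 times PS19 (0.327 to 0.472). Ifngr2, the chain needed for signalling, had an FPKM of 16.7 in WT (1086 reads), 12.3 in PS19 (803 reads) and 17.0 in PS19 Zbp1+/- (1011 reads). Here PS19 was the low library, at 0.738 times WT (0.673 to 0.809), and PS19 Zbp1+/- was at 1.38 times PS19 (1.25 to 1.51), a log2(FPKM + 1) difference of 0.43 that became 0.16 and 0.25 under the same 2 scalings. Ifngr2 was the only one of the 9 genes whose PS19 to WT interval lay below 1.

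Jak1, the kinase shared by both receptors, was the most abundant of the 9 transcripts and the most even. It had an FPKM of 24.7 in WT (3079 reads), 24.9 in PS19 (3107 reads) and 27.3 in PS19 Zbp1+/- (3125 reads). The ratio of PS19 to WT was 1.01 (0.958 to 1.06). PS19 Zbp1+/- was at 1.10 times PS19 (1.05 to 1.15), but on the log2(FPKM + 1) scale that difference of 0.13 turned to -0.051 with libraries scaled by total reads and to -0.14 with libraries rescaled to the same FPKM sum. Tyk2, the kinase held by IFNAR1, had an FPKM of 3.40 in WT (403 reads), 4.61 in PS19 (547 reads) and 3.84 in PS19 Zbp1+/- (417 reads). It was 1.35 times WT in PS19 (1.19 to 1.54) and 0.833 times PS19 in PS19 Zbp1+/- (0.731 to 0.948).

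Stat2 and Irf9, subunits of ISGF3, were both highest in PS19. Stat2, which supplies the activation domain of the complex, had an FPKM of 4.37 in WT (447 reads), 7.72 in PS19 (791 reads) and 5.14 in PS19 Zbp1+/- (482 reads). Its PS19 to WT ratio was 1.77 (1.57 to 1.99), and PS19 Zbp1+/- was at 0.666 times PS19 (0.593 to 0.746) and at 1.18 times WT (1.03 to 1.34). Irf9, the DNA-binding subunit, had an FPKM of 3.002 in WT (279 reads), 5.80 in PS19 (540 reads) and 1.99 in PS19 Zbp1+/- (170 reads). It was 1.93 times WT in PS19 (1.67 to 2.24), much like Stat2. In PS19 Zbp1+/- Irf9 was at 0.344 times PS19 (0.288 to 0.409) and at 0.664 times WT (0.546 to 0.807). As deposited it thus lay below WT where Stat2 lay above it. The excess of Stat2 over WT depended on the scaling. Its log2(FPKM + 1) difference was 0.19 as deposited, 0.062 with libraries rescaled to the same FPKM sum and 0.064 with scaling by total reads.

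Irf7 spanned the widest range of the 9 genes. Its FPKM stood at 0.706 in WT (46 reads), 3.62 in PS19 (236 reads) and 0.519 in PS19 Zbp1+/- (31 reads). PS19 was at 5.12 times WT (3.72 to 7.18), and PS19 Zbp1+/- at 0.143 times PS19 (0.0953 to 0.209), that is 6.97-fold lower. WT and PS19 Zbp1+/- could not be told apart at this depth, at a ratio of 0.735 (0.450 to 1.18). In bulk tissue fewer cells of a type and less RNA per cell cannot be told apart, here and in every result.

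**Figure D1:**
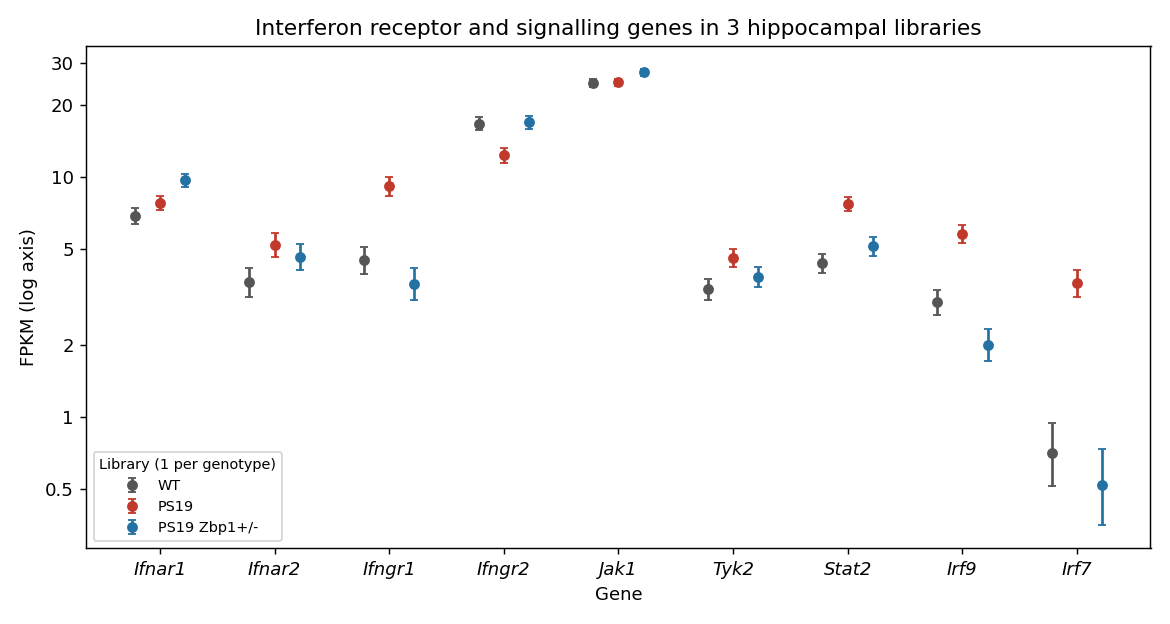
FPKM (log axis) of the 9 genes in the WT, PS19 and PS19 Zbp1+/- libraries, 1 point per library, with bars for the 95% counting interval. As deposited, PS19 is the highest library for 6 genes, by the widest margin for Irf7 (3.62 against 0.706 and 0.519), and the lowest for Ifngr2 (12.3).

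A gene was called at a difference of 1 or more in log2(FPKM + 1), where the pseudocount shrinks differences of low values. Between PS19 and WT, 1 of the 9 genes, Irf7, was called higher (1.44) and none lower, against 2.2% called higher and 0.291% called lower of 12703 protein-coding genes that reached an FPKM of 1. Of these genes 116 had a larger difference than Irf7. The median of the 9 genes was 0.42, and that of all genes was -0.03. Ifngr1 (0.88), Irf9 (0.76) and Stat2 (0.70) followed below the threshold, then Ifnar2 (0.42), Tyk2 (0.35), Ifnar1 (0.16) and Jak1 (0.01), with Ifngr2 at -0.41. Ifngr1 passed 2-fold in plain reads per library size, as 4.51% of all genes did, so its call depends on the pseudocount of 1.

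In PS19 Zbp1+/- against PS19, 3 of the 9 genes were called lower, Irf7 (-1.60), Irf9 (-1.18) and Ifngr1 (-1.14), and none higher. The background was 5.16% called lower and 2% called higher of 12772 genes. The other values were -0.51 for Stat2, -0.21 for Tyk2, -0.14 for Ifnar2, 0.13 for Jak1, 0.28 for Ifnar1 and 0.43 for Ifngr2. The median was -0.21 for the 9 genes and 0.04 for all genes. Of the calls over all genes 27.9% were higher, against 10.5% after rescaling each library to the same FPKM sum and 14.6% after scaling by total reads. These scalings put the median of all genes at -0.21 and -0.12, while the same count of 3 genes was called lower under both. This comparison and the first share the PS19 library, so a high or low value there enters both with opposite signs.

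None of the 8 genes that reached an FPKM of 1 was called in PS19 Zbp1+/- against WT, where 1.07% of 12436 genes were called higher and 2.28% lower. Irf7 did not enter, at 0.706 and 0.519. It reached an FPKM of 1 in PS19 alone, so the filter fixed its direction in both comparisons with PS19. The differences ran from -0.42 for Irf9 and -0.26 for Ifngr1 to 0.28 for Ifnar2 and 0.44 for Ifnar1, with a median of 0.14 beside 0.01 for all genes. By counting error alone, 4 of the 9 read ratios lay above 1 as deposited (Ifnar1, Ifnar2, Jak1 and Stat2). Another 2 lay below it (Irf9 and Ifngr1). Those above 1 depended on the scaling: the difference of Jak1 (0.14) turned to -0.011 and -0.0092 under the 2 other scalings. Stat2 went from 0.19 to 0.062 and 0.064 under them, Ifnar2 from 0.28 to 0.16 in both, and Ifnar1 from 0.44 to 0.30 in both. Irf9 and Ifngr1 moved further below, to -0.52 and -0.38 in both. Of all genes 32% of the calls were higher, against 17.1% and 17.3% under the 2 other scalings, which put the median of all genes at -0.13 in both cases.

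**Figure D2:**
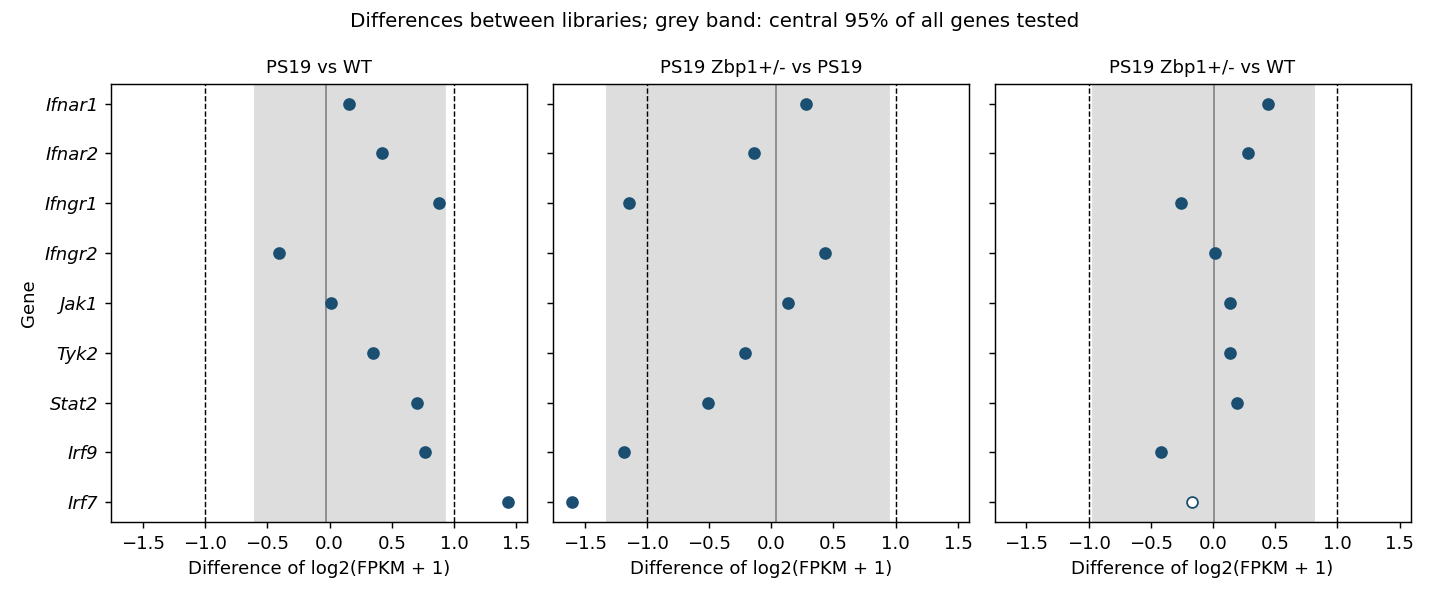
Difference of log2(FPKM + 1) for the 9 genes in each comparison of 2 libraries (x axis, log2 units), with dashed lines at the threshold of 1, a grey band for the central 95% of all genes tested and a grey line at their median. The open circle is Irf7, which did not reach an FPKM of 1 in that comparison. Irf7 lies outside the band in the first and second comparison, at 1.44 and -1.60.

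As deposited, PS19 was the highest of the 3 libraries for 6 of the 9 genes, PS19 Zbp1+/- for Ifnar1, Ifngr2 and Jak1, and WT for none. Rescaled to the same FPKM sum or by total reads, PS19 was highest for 7, with Jak1 added, PS19 Zbp1+/- for Ifnar1 and WT for Ifngr2. Among the 12875 protein-coding genes that reached an FPKM of 1 in some library, 30.6% were highest in PS19, 40.1% in PS19 Zbp1+/- and 29.3% in WT as deposited, and the share for PS19 was 50.1% and 39.4% under the 2 other scalings. As deposited, the highest library exceeded the lowest by 1.11 times for Jak1, 1.35 to 1.43 times for Tyk2, Ifngr2, Ifnar1 and Ifnar2, 1.77 times for Stat2, 2.54 times for Ifngr1, 2.91 times for Irf9 and 6.97 times for Irf7. The receptors other than Ifngr1 and the kinases thus varied less than the transcription factors.

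Ratios of partner genes within a library do not depend on how libraries are scaled. Their level depends on the gene lengths used, while the change of a ratio between libraries does not. By the length of the transcript with the longest coding sequence, FPKM values in PS19 were 12.5 for Ifngr2 and 12.3 for Ifngr1. The pairs were chosen after the values had been seen, so these ratios describe the libraries and test nothing. Ifngr2 reads per gene length were 3.71 times those of Ifngr1 in WT (3.21 to 4.31), 1.35 times in PS19 (1.20 to 1.52) and 4.72 times in PS19 Zbp1+/- (3.99 to 5.60). The ratio was lowest in PS19: the ratio there was 0.363 times that of WT (0.300 to 0.439), and that of PS19 Zbp1+/- was 3.496 times that of PS19 (2.85 to 4.31). The type I pair was steadier, with Ifnar1 over Ifnar2 at 1.89, 1.496 and 2.08. Jak1 over Tyk2 was 7.26, 5.40 and 7.12, and Jak1 over Jak2, the kinase of the interferon gamma receptor, 2.90, 2.64 and 3.80.

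Stat2 over Irf9 was 1.46 in WT (1.25 to 1.70), 1.33 in PS19 (1.19 to 1.49) and 2.58 in PS19 Zbp1+/- (2.16 to 3.09). By the length of the transcript with the longest coding sequence, FPKM values in PS19 were 10.4 for Stat2 and 10.6 for Irf9. The proportion of these ISGF3 subunits in PS19 was 0.914 times that in WT, with an interval that holds 1 (0.756 to 1.10), while in PS19 Zbp1+/- it was 1.93 times that in PS19 (1.57 to 2.39). Irf7 was below Irf3, the related factor that is present without stimulation, in every library: the ratio was 0.0928 in WT (0.0669 to 0.126), 0.435 in PS19 (0.371 to 0.509) and 0.153 in PS19 Zbp1+/- (0.101 to 0.224). The ratio in PS19 Zbp1+/- was 1.65 times that in WT, with an interval that holds 1 (0.976 to 2.75). Irf3 was itself lower there, at 0.446 times WT (0.374 to 0.531).

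**Figure D3:**
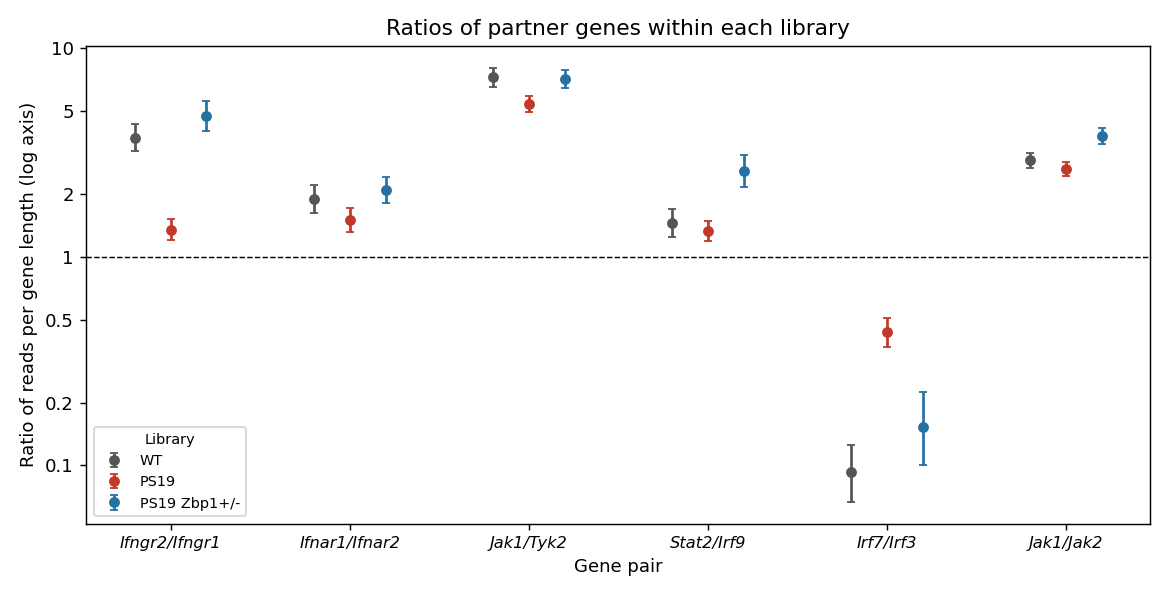
Ratio of reads per gene length (log axis) between the genes of 6 pairs within the WT, PS19 and PS19 Zbp1+/- libraries, with 95% counting intervals and a dashed line at 1. Ifngr2/Ifngr1 is lowest in PS19 (1.35 against 3.71 and 4.72), while Stat2/Irf9 differs mainly in PS19 Zbp1+/- (2.58). The position of a ratio relative to the line depends on the gene lengths used.

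In order of FPKM, Jak1 was first and Ifngr2 second in every library, and Irf7 last. In WT, Ifnar1 took the third place, and the counting intervals of each neighbouring pair among Ifngr1, Stat2, Ifnar2, Tyk2 and Irf9 (4.50 down to 3.002) overlapped. Ifngr1 took the third place in PS19 (9.14) and the seventh in PS19 Zbp1+/- (3.60). In PS19 the intervals of Ifngr1 and Ifnar1 overlapped, as did those of Ifnar1 and Stat2, of Irf9 and Ifnar2, and of Ifnar2 and Tyk2. The table's lengths count every annotated exon, retained introns included: for Irf7 the length, 3776 bases, equals the whole span of the gene. With the length of the transcript that has the longest coding sequence (1916 bases for Irf7), Irf7 stood at 1.39, 7.12 and 1.02, above Ifnar2 (5.70) and Tyk2 (6.55) in PS19. Read ratios between libraries are the same with either length, while differences of log2(FPKM + 1) depend on the level and so on the length.

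Markers of several cell types were also highest in PS19, like Irf7, Irf9 and Ifngr1. The 15 microglia markers summed to FPKM values of 200.2, 730 and 220, which is 3.65 times WT in PS19 and 0.301 times PS19 in PS19 Zbp1+/-. Of these, 11 of 15 were called higher in PS19 than in WT, and 11 of 15 lower in PS19 Zbp1+/- than in PS19. P2ry12 and Tmem119 did not follow, with 490, 444 and 349 reads and 440, 497 and 374 reads. The 10 oligodendrocyte markers summed to 922, 1649 and 599, and the 10 astrocyte markers to 670, 1596 and 832, led by Gfap. Called higher in PS19 than in WT were 1 of 10 oligodendrocyte and 2 of 10 astrocyte markers. Called lower in PS19 Zbp1+/- than in PS19 were 10 of 10 oligodendrocyte and 2 of 10 astrocyte markers. The shares over all genes tested were 2.2% called higher and 5.16% called lower in these comparisons. The 12 neuron markers summed to 2262, 1823 and 2758. Their part in the differences of the 9 genes was not tested.

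Markers of blood-borne cells, border macrophages and vessel cells were read as well. The 9 T and NK cell markers had 25, 82 and 37 reads in all, 7 of them were at 0 in PS19 Zbp1+/-, and Cd3e had 0, 4 and 0. Of the 4 B cell markers Ms4a1 had 0 reads in every library, and their sum, 302, 815 and 106 reads, came mainly from Ighm. The 7 markers of monocytes and border macrophages had 208, 288 and 30 reads, and the 5 blood genes 263, 215 and 48. Endothelial markers had summed FPKM values of 68.3, 73.1 and 80.2 over 10 genes, with 0 called in any comparison. Single markers differed more, from -0.59 to 0.96 in PS19 Zbp1+/- against PS19. The part of these cells in the 9 genes was not tested either.

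The rest of the pathway was read from lists of other ligands, receptors, kinases, factors, regulators and targets. Of 21 interferon genes, 20 had 0 reads in all 3 libraries, Ifnb1 and Ifng among them, and Ifne had 2 reads in PS19. For the others a count of 0 allows an FPKM of 0.119 to 0.338, depending on gene and library, so transcripts of these 20 genes were not detectable at this depth. Of 8 other receptor chains 6 were tested between PS19 and WT, and 2 were called higher: Osmr, the oncostatin M receptor (97, 749 and 139 reads), and Il10ra (77, 262 and 47 reads). Il10rb, which lies between Ifnar2 and Ifnar1, had 102, 138 and 66 reads. Il6st, the shared chain of interleukin-6 family receptors, had 1346, 2213 and 1064 reads, and Lifr 902, 1015 and 826.

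Of 8 other Jak and Stat genes 6 were tested between PS19 and WT, and 0 were called, with a median of 0.48. Stat3, which serves interleukin-6 family receptors, had 882, 1665 and 732 reads. Jak2 had 739, 819 and 573, Jak3 136, 246 and 151, and Stat5b 444, 513 and 342. Stat6 (-1.06; 202, 289 and 91 reads) was among the genes called lower in PS19 Zbp1+/- than in PS19.

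Among 10 other genes named Irf or for binding IRF2, 8 were tested, and Irf8 and Irf5 were called higher in PS19 than in WT. Irf8, a factor of the myeloid lineage, had 98, 487 and 124 reads, a PS19 to WT ratio of 4.96 (3.98 to 6.23), close in size to that of Irf7. Irf5 had 67, 208 and 68 reads, a ratio of 3.10 (2.34 to 4.14). Irf1, an early interferon target, had 163, 216 and 114 reads. Irf3 had 452, 495 and 185 reads: its PS19 to WT ratio of 1.09 had an interval that holds 1 (0.960 to 1.24), and it was at 0.408 times PS19 in PS19 Zbp1+/- (0.343 to 0.484). Irf3 shares 88 bases with Bcl2l12 on the other strand. In PS19 Zbp1+/- 3 of 8 were called lower than in PS19, Irf8 (-1.24), Irf3 (-1.08) and Irf5 (-1.05). The most abundant of the list, Irf2bpl, had 1818, 1695 and 3017 reads, Irf2bp1 1110, 958 and 1304, and Irf2bp2 770, 770 and 710.

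Of 17 negative regulators 15 were tested between PS19 and WT, with a median of 0.05, and 3 were called higher. Usp18, which blocks signalling at IFNAR2, had 31, 191 and 7 reads. Ptpn6, the phosphatase SHP-1, had 54, 243 and 59 reads, and Socs3, a feedback inhibitor of interleukin-6 family signalling, 31, 123 and 36. Socs1, the feedback inhibitor of interferon receptors, had 26, 29 and 35 reads, too few to tell the libraries apart. The 4 most abundant regulators, Socs5, Ptpn11, Socs7 and Ptpn1, had PS19 minus WT differences of -0.25, 0.42, -0.04 and 0.05.

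Target genes of the pathway had larger median differences than its components. Of 28 ISGF3 targets 25 were tested between PS19 and WT, 19 were called higher and 0 lower, with a median of 1.34 (2.24 in log2 reads per library size with counts set to at least 3). Called lower in PS19 Zbp1+/- than in PS19 were 21 of 25, with a median of -1.59, and all 25 lay below 0. Over all genes tested, 2.2% were called higher in the first of these comparisons and 5.16% lower in the second. Zbp1, the targeted gene, is in the list and counted in both, at 1.20 and -1.32. Its lower call is therefore no result about the pathway. Usp18 is counted both here and among the negative regulators. Ifit3 had 92, 897 and 54 reads, Ifit1 39, 400 and 5, and Isg15 25, 155 and 31. Lgals3bp had 553, 1765 and 202 reads, Bst2 120, 353 and 47, and Cmpk2 367, 530 and 342. The paralog Ifit3b is nearly identical to Ifit3, so the split of reads between them is uncertain. Of 23 interferon gamma targets 19 were tested, and 14 were called higher in PS19 than in WT and 14 lower in PS19 Zbp1+/- than in PS19, with medians of 1.42 and -1.55. Cd74 had 204, 3052 and 15 reads, H2-Aa 63, 553 and 0, H2-Ab1 43, 333 and 0, and Psmb10 431, 517 and 347. Several of these targets were known from earlier results of these data, so their direction is no independent evidence. Between PS19 Zbp1+/- and WT only 10 ISGF3 and 12 interferon gamma targets entered, with medians of -0.36 and -0.59. In each list 3 were called lower and 0 higher there, against 2.28% and 1.07% of all genes. Targets tested against PS19 but not there reached an FPKM of 1 in PS19 alone. The filter thus fixed their direction in both comparisons with PS19, as it did for Osmr and Socs3.

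**Figure D4:**
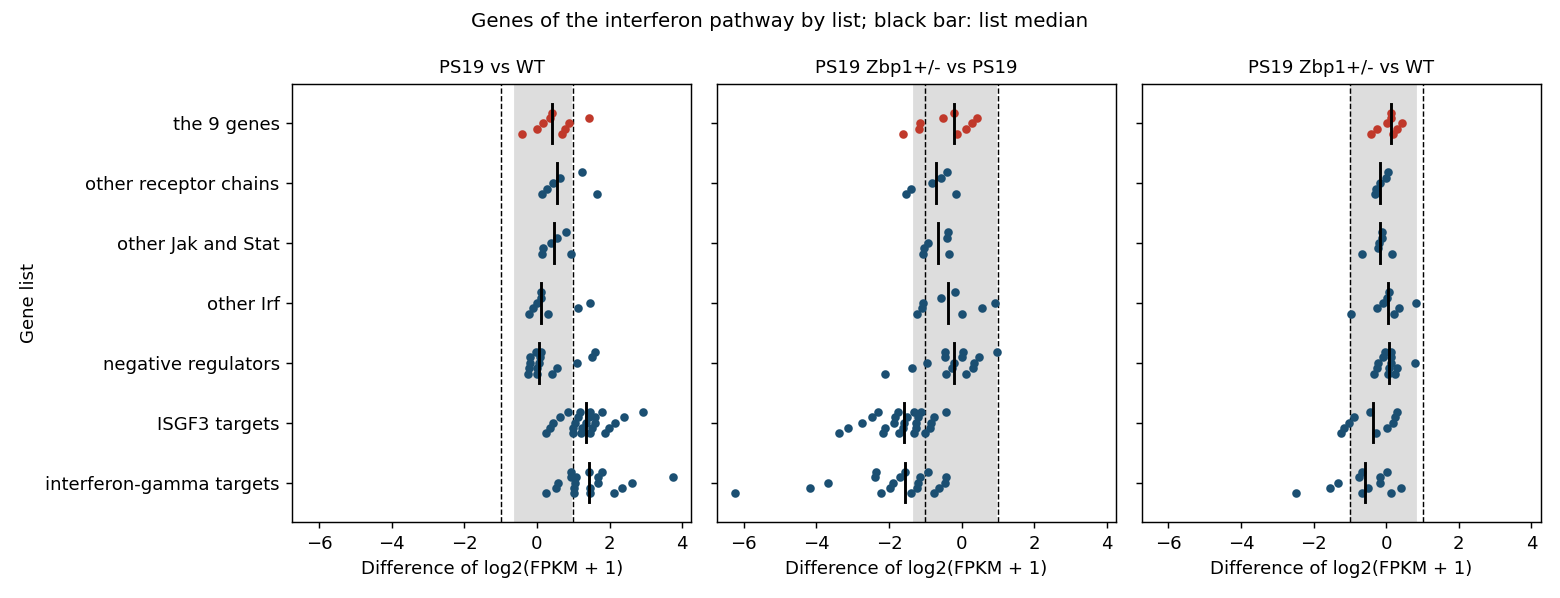
Difference of log2(FPKM + 1) (x axis, log2 units) for each gene tested, by list, in the 3 comparisons. Red points are the 9 genes, blue points the other lists, black bars list medians, dashed lines the threshold of 1 and the grey band the central 95% of all genes. ISGF3 targets have a median of 1.34 between PS19 and WT, against 0.42 for the 9 genes. Only 10 ISGF3 targets entered PS19 Zbp1+/- against WT, and the filter fixed the direction of the others plotted.

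Genes most like each of the 9 were sought by Euclidean distance in the differences of the first and second comparison, over 3 libraries and 8434 protein-coding genes that reached an FPKM of 5. With 3 libraries such likeness is thin, and it is given as a description. Irf7 had Slc14a1, Ctsz and Msn nearest, at distances of 0.0627, 0.0651 and 0.0767. Slc14a1, a urea transporter, had FPKM values of 4.66, 14.7 and 4.35. Nearest to Irf9 were Mog (0.0682), Dbndd2 (0.0798) and Tmem176b (0.0818), where Mog is a myelin protein with FPKM values of 28.3, 49.3 and 20.2. Ifngr1 had Plcb4, Cd83 and Rapgef3 nearest, and Stat2 had Hepacam, Lgi3 and Mcur1. For the genes with small differences the nearest were Fbrsl1, Ski and Grin2b for Ifnar1, Aaas, Rcan3 and Prr5 for Ifnar2, Klhl23, Ctdnep1 and Rps26 for Ifngr2, Tnip1, Gm14305 and Tmem65 for Jak1, and Manea, Irak1 and Nfat5 for Tyk2.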

How the data were processed

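The authors deposited 1 table of FPKM values, with 54532 genes and 1 column per library. Per the submitters' processing notes, Trim Galore 0.6.5, STAR 2.5.3a and featureCounts 2.0.4 were used, and per the labels' protocols libraries were made from TRIzol-extracted RNA. FPKM times gene length was a whole multiple of 1 step for 100% of nonzero values (tolerance 0.05), so whole reads were recovered. The implied library sizes equal the totals' geometric mean times median-of-ratios factors of 1.03, 1.03 and 0.945 in WT, PS19 and PS19 Zbp1+/-. Libraries were compared in pairs by log2(FPKM + 1), over protein-coding genes where at least 1 library of the pair reached an FPKM of 1. With 1 library per genotype no p-value was computed. Read ratios carry exact Clopper-Pearson intervals, and FPKM values carry exact Poisson intervals, both at 95%. The 9 genes, the lists and the promoter motifs were chosen with earlier results of these data known. All 9 genes were named, and 1 gene that the rule names is not reported here. From each pathway list, the 4 genes with the highest summed FPKM and the 3 with the largest PS19 minus WT difference were named, while Il10rb, Socs1, Ifnb1, Ifng, Ddx3y, Xist and single marker genes were named after their values had been seen. Promoters came from RefSeq (GRCm38.p6), where all 9 genes matched. The procedure was tested on simulated data with counting error alone. The 4-fold changes set there were in genes with a higher FPKM in both WT and PS19 than Irf7, Irf9 and Ifngr1 had in WT. It therefore does not cover the calls of these genes. Alternatives were pseudocounts, filters, scalings, biotypes, thresholds, the mean and, added after the data had been seen, reads without a pseudocount and the highest library of each gene under the other scalings. The tools were scipy 1.17.1, numpy 2.4.6 and pandas 2.3.3 under Python 3.11.15, with figures from matplotlib 3.10.9.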

Additional observations from a re-analysis of the deposited data

How the results depend on the processing

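No paired analysis was possible because each genotype had 1 library, and for the same reason no library could be left out. Between PS19 and WT the count of called genes was 1, and it was 2 with a pseudocount of 0.1, with rescaling to the same FPKM sum and with reads without a pseudocount. In each of these Ifngr1 passed the threshold, at 1.01, 1.001 and 1.02. The share of all genes called was 2.5% as deposited, and 5.05%, 2.95% and 5.47% under these settings. A threshold of 1.5-fold gave 4 genes and one of 4-fold gave 0, and the share of all genes at these thresholds is not given here. A mean FPKM of at least 5 left 5 genes to test, with 0 called and a median of 0.16. Of all genes 1.52% were called with that filter. Between PS19 Zbp1+/- and PS19 the count of 3 went to 0 at 4-fold and to 1 of 5 genes at a mean FPKM of at least 5. There the median turned to 0.13 because Irf7, Irf9, Ifnar2 and Tyk2 no longer entered. Of all genes in this comparison 7.16% were called as deposited and 5.56% with that filter. The median of the 9 genes was -0.44 with rescaling to the same sum, and the mean over the 9 genes was -0.44. Jak1 turned to -0.14 under that rescaling and to -0.051 under total reads in that comparison. Between PS19 Zbp1+/- and WT, Jak1 turned to -0.011 and -0.0092 and Ifngr2 to -0.13 and -0.13 under the same 2 scalings; the cause was not tested. Depth limits Irf7 most, with 31 reads in PS19 Zbp1+/-.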
